A study of Mus with 3 samples.

Results

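Serine/threonine protein phosphatase subunits were examined in mouse hippocampus on 3 expression arrays. A gene belonged to the set if its name on the array began with Ppp1 to Ppp6 followed by c or r, or with Ppm1, and Ppp1r15a was left out. This gave 76 genes with 111 probes, of 23756 named genes and 39429 probes on the array. Ppp2r2c and Ppp5c, which encode a regulatory subunit of PP2A and the enzyme PP5, are set beside their families. They were singled out because their signals on the arrays were already known, so their differences are a description and carry no test.

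The mice were male Slc:ddY, an outbred stock, aged 6 weeks, with 10 mice in each of 3 groups. The ASO group swallowed 2000 mg/kg/day of shochu oil for 15 days and received 5 µL of a solution with 10 nmol of Aβ25-35 into the cerebral ventricles on day 8. The labels list the second injected group under a name that no sample carries, and it was taken to be ASO because the design text calls ASO injected. The ACO group received the same peptide injection and drank distilled water in place of the oil. The NCO group drank distilled water and was given 5 µL of distilled water, by a route that the labels do not name, so the injection itself and the peptide cannot be told apart in ACO against NCO. Shochu is a distilled spirit that can be made from sweet potato, here represented by its oily components, and Aβ25-35 is a short toxic fragment of amyloid β used to impair memory. The series title states the question: whether the oil eases the loss of short-term memory after the peptide. Hippocampi were taken after a Y-maze test on day 16. RNA was joined in 5 sets of 2 mice, the sets of a group were pooled, and 1 array was hybridised for each pool.

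These phosphatases remove phosphate from serine and threonine, and each catalytic subunit works with regulatory subunits that set its place, substrate and activity. PP1 is held by targeting subunits and restrained by small inhibitors. PP2A joins a catalytic subunit and a scaffold with an exchangeable B-type subunit, and it is the main enzyme that dephosphorylates tau in brain; PP5 can also act on tau. Calcineurin, the calcium-activated phosphatase, is abundant in hippocampal neurons and opposes protein kinases in synaptic plasticity. The PPM enzymes form a separate family that needs metal ions and works without such subunits.

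With 1 array for each group there was no replicate, and no test and no p-value is given. A value below is a background-corrected signal scaled to a common 75th percentile, and a difference is between log2 values after a constant of 50 was added. Signals of different probes are not compared with each other. On the ASO, ACO and NCO arrays 53.7%, 51.7% and 50.9% of probes were above background. Every representative probe of a phosphatase gene was a single spot. The available yardsticks were technical: 250 probes printed in 10 spots had a median SD over spots of 0.094 in ASO minus ACO, 0.098 in ASO minus NCO and 0.085 in ACO minus NCO, on the log2 scale. Another was less even: 6 probes for spiked-in E1A RNA, scaled like the genes, had a median difference of 0.46 in ASO minus ACO (range 0.29 to 0.82), 0.32 in ASO minus NCO and -0.14 in ACO minus NCO. The first 2 of these are larger than the 1.2-fold limit used below, 0.26 on the log2 scale, and their part in the gene differences was not tested. The spread between mice was not measured.

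Of the 76 genes, 64 were well above background on all 3 arrays, among 13206 such genes in all. A further 7 were not well above background on any array: Ppm1j, Ppm1n, Ppp1r14d, Ppp1r15b, Ppp1r1c, Ppp1r3a and Ppp3r2. The other 5 passed on 1 or 2 arrays. Ppp1r3b, which brings PP1 to glycogen, had signals of 101 on ASO, 47.9 on ACO and 64.0 on NCO. It passed on ASO and NCO but not on ACO. The ratio of its signals, without the constant, was 2.11 for ASO over ACO and 1.34 for NCO over ACO. With the constant the log2 differences were 0.63 in ASO minus ACO and -0.22 in ACO minus NCO, under 2-fold. Ppp1r3e, another glycogen-targeting subunit, passed on ACO alone, with 24.8 on ASO, 40.3 on ACO and 43.8 on NCO. Ppp2r3a, a PP2A B double prime subunit, passed on ACO alone, with 24.8 on ASO, 38.4 on ACO and 36.3 on NCO. Ppp2r1b, the second PP2A scaffold, also passed on ACO alone, with 47.6 on ASO, 51.7 on ACO and 55.5 on NCO. Ppp4r1l-ps, a pseudogene related to a PP4 subunit, passed on ASO and ACO, with 54.5 on ASO, 55.5 on ACO and 48.0 on NCO. A signal that did not pass lies near background, so no bound on a fold is read from it. Passing on some arrays only also bears on which array looks brighter, so no direction is read from these 5 genes. The filter turned on a gene's lowest signal to noise score over the 3 arrays, with a limit of 2.6. Among measured genes this lowest score was smallest for Ppp2r3d, at 3.52. Among the others it was largest for Ppp4r1l-ps, at 2.39.

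Between ASO and ACO, 7 of 64 measured phosphatase genes had a signal higher by at least 1.2-fold on ASO, where 10.1% of all measured genes did. Another 8 of the 64 were at least 1.2-fold lower, against 9.44% of all measured genes. These shares of 10.9% and 12.5% lay near the background, as did the 15 of 64 in either direction, 23.4%, beside 19.6% of all genes. At 2-fold Ppp5c was the 1 gene higher, where 0.189% of all measured genes were, and Ppp2r2c the 1 gene lower, where 0.0682% were. Both were chosen for this difference, and nothing is read from their count. The median difference was 0.00 over the 64 genes and -0.02 over all measured genes, with 33 of 64 above 0 beside 6152 of all 13206. With arrays scaled to their median instead, the split was 5 higher and 17 lower, against 22.5% of all measured genes lower, because that scaling moved the median of all genes by -0.10. Relative to all genes the phosphatase genes again lay near the middle, at a median of -0.11 against -0.12.

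Between ASO and NCO, 7 of 64 were higher by at least 1.2-fold on ASO, beside 10.3% of all measured genes, and 6 were lower, beside 8.39%. At 2-fold the same 2 genes passed, Ppp5c higher, beside 0.189% of all genes, and Ppp2r2c lower, beside 0.0909%. Scaling to the median gave 3 higher, beside 6.5% of all genes, and 13 lower, which is 20.3% of the 64 beside 18.4% of all genes. The median was -0.01 over phosphatase genes and -0.02 over all genes, and -0.09 and -0.09 with that scaling. This comparison shares the ASO array with the one before it, so the values for a gene are given side by side and are not independent.

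Between ACO and NCO, 0 of 64 were higher by at least 1.2-fold on ACO, where 2.78% of all measured genes were. Lower were 3, Ppp1r10, Ppp1r14a and Ppp2r3d, where 2.7% of all measured genes were. None of the 64 reached 2-fold, a size that 0.0757% of all genes passed. The SD of the difference over the 64 genes was 0.12 in ACO minus NCO, against 0.32 in ASO minus ACO and 0.31 in ASO minus NCO. Without Ppp2r2c and Ppp5c, which were chosen for their values, it was 0.12, 0.23 and 0.22 over the other 62 genes. Over all measured genes it was 0.14, 0.22 and 0.23 in the same comparisons, so over all genes too the comparisons that hold the ASO array were wider.

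**Figure D1:**
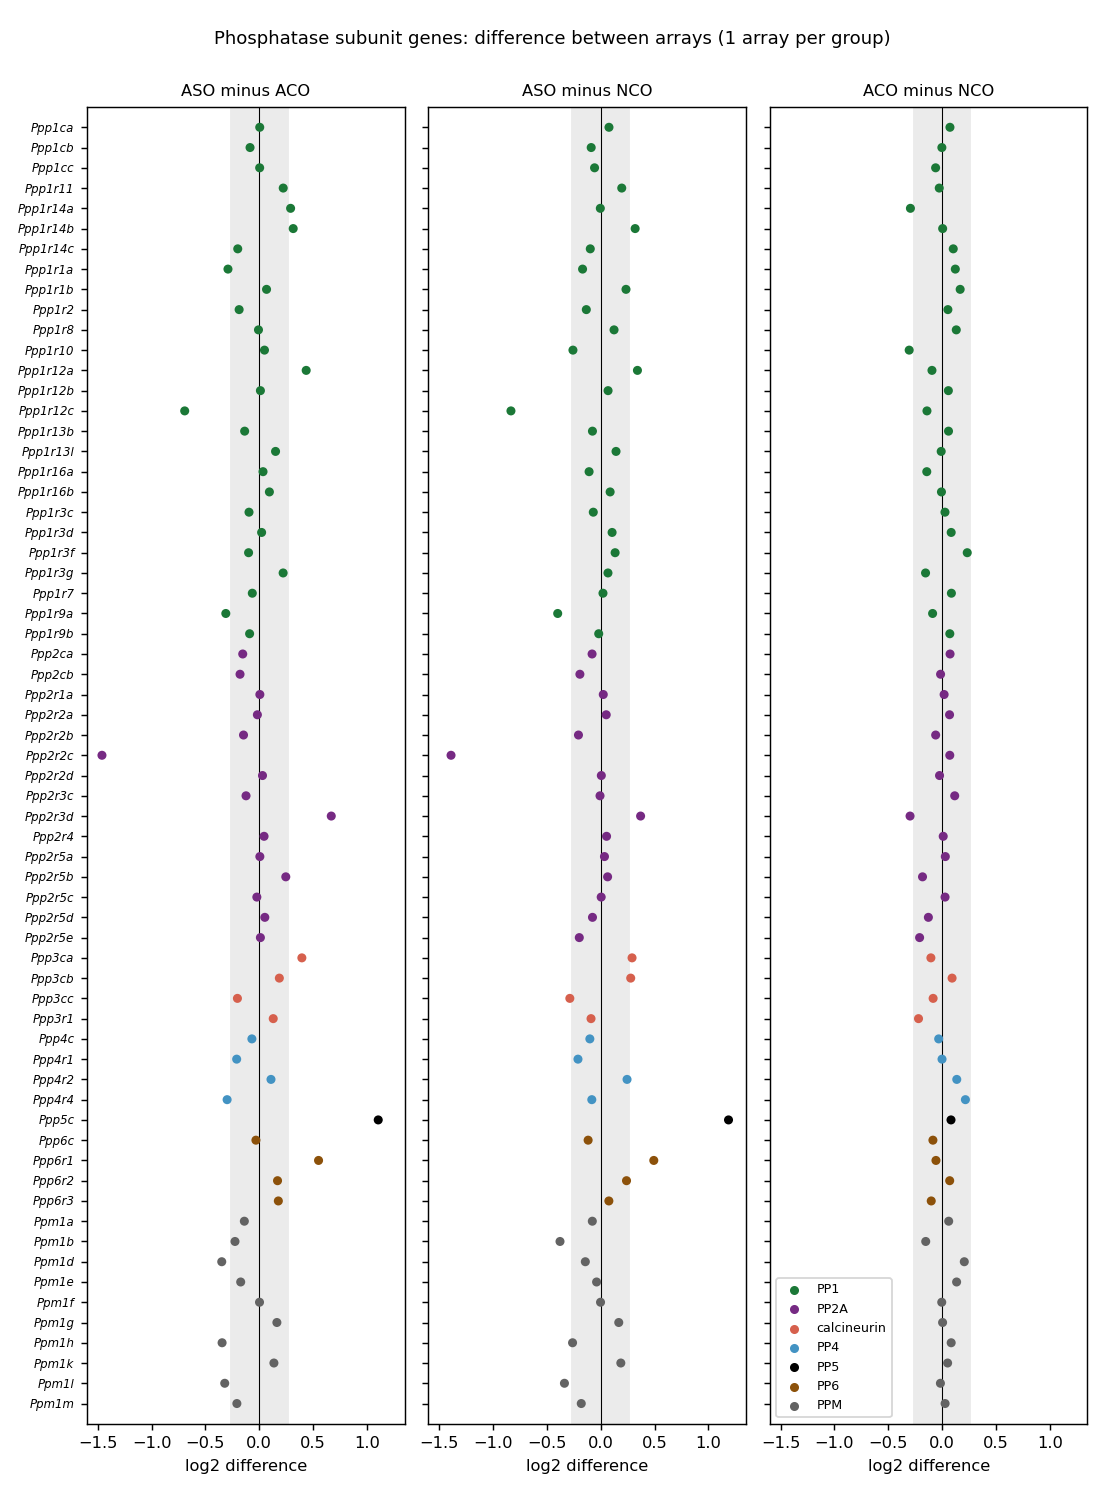
Log2 difference of each of the 64 measured phosphatase genes (rows, grouped by enzyme) in ASO minus ACO, ASO minus NCO and ACO minus NCO. Each point is 1 probe on 1 array per group, and the grey band spans differences under 1.2-fold. Ppp2r2c at -1.46 and Ppp5c at 1.10 stand at the ends of ASO minus ACO, and in ACO minus NCO nearly all points lie in the band.

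Ppp2r2c encodes the gamma form of the PP2A B subunit, the subunit class that steers PP2A towards cytoskeletal substrates such as tau. Its signal was 4740 on ASO, 13141 on ACO and 12507 on NCO. ASO alone was low, and ACO and NCO lay 0.07 apart on the log2 scale. The difference was -1.46 in ASO minus ACO, a 2.75-fold lower signal and the third lowest of 13206 measured genes, and -1.39 in ASO minus NCO. No second probe for the gene was on the array.

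The other B subunits did not share this difference. Ppp2r2a, the alpha form found in most tissues, had signals of 3982 on ASO, 4032 on ACO and 3841 on NCO. Ppp2r2b, the beta form of neurons, had 5010 on ASO, 5551 on ACO and 5789 on NCO. Ppp2r2d, the delta form, had 6557 on ASO, 6422 on ACO and 6531 on NCO. Their differences in ASO minus ACO were -0.02, -0.15 and 0.03, and a second probe of Ppp2r2b gave 0.01. All 3 stayed under 1.2-fold in every comparison, and Ppp2r2c did so in ACO minus NCO.

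The spot that measured Ppp2r2c differed in shape between arrays. It lay in row 2, column 124 of an array of 170 rows and 266 columns. Its pixel mean divided by its pixel median, both less the background, was 1.07 on ASO, 0.69 on ACO and 0.74 on NCO. The ASO ratio stood 0.53 (log2) from the middle of the 3 arrays. Among 16156 spots bright enough to be examined, 47 (0.291%) were more than 0.3 from the middle on some array, and of 57 phosphatase spots examined Ppp2r2c was the 1 that was. With pixel means in place of medians its signals were 4949 on ASO, 9105 on ACO and 9373 on NCO, with differences of -0.87 in ASO minus ACO and -0.91 in ASO minus NCO. The signal stayed lowest on ASO, but under 2-fold.

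Spots beside it were low on ASO too. Dap3, a mitochondrial ribosome gene that is no phosphatase subunit, lay 1 row and 1 column away and had signals of 512 on ASO, 2818 on ACO and 2644 on NCO, a difference of -2.35 in ASO minus ACO. Its pixel mean over median was 1.60 on ASO, 0.75 on ACO and 0.76 on NCO. A probe with no gene name, in row 3 and column 125, had signals of 220 on ASO, 413 on ACO and 372 on NCO. The 7 measured spots within 2 rows and 2 columns of Ppp2r2c had a median ASO minus ACO of -0.15. The part of the spot and its surroundings in the Ppp2r2c difference was not tested. Subtracting the median of a 5 by 5 window of surrounding spots gave -1.31 for Ppp2r2c in ASO minus ACO, and an 11 by 11 window gave -1.43. A window median barely moves when only a few of the surrounding spots are low, so these values do not decide that part.

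**Figure D2:**
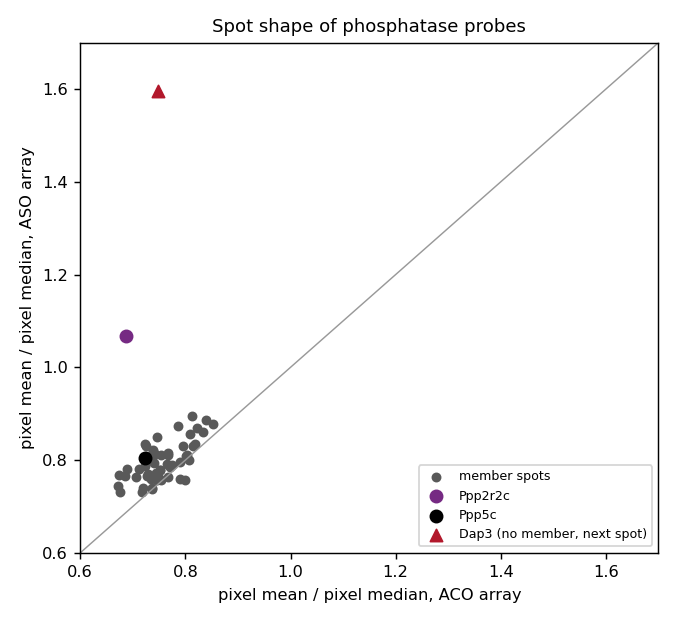
Ratio of pixel mean to pixel median of a spot on the ASO array (vertical axis) against the ACO array (horizontal axis), for the phosphatase spots examined and for Dap3, which was printed beside Ppp2r2c. The line marks equal ratios. Ppp2r2c, at 1.07 on ASO and 0.69 on ACO, stands above the other phosphatase spots, and Ppp5c, at 0.80 and 0.72, lies among them. Ratios on NCO, 0.92 for Ppp5c, are not shown.

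Ppp5c encodes PP5, a phosphatase with its own regulatory domain that binds the chaperone Hsp90. Its signal was 1471 on ASO, 657 on ACO and 618 on NCO, so that ASO alone was high. The difference was 1.10 in ASO minus ACO, a 2.15-fold higher signal and the 13th highest of 13206 measured genes. It was 1.19 in ASO minus NCO and 0.08 in ACO minus NCO. PP5 has a single catalytic gene, so there was no close relative within its family to set beside it.

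The Ppp5c spot lay in the same row as that of Ppp2r2c, 3 columns away, and it too was the gene's only probe. Its pixel mean over median was 0.80 on ASO, 0.72 on ACO and 0.92 on NCO, inside the limit of 0.3 on all arrays. From the middle of the 3 arrays the ACO ratio stood at -0.154 and the NCO ratio at 0.196 (log2). Over all spots examined the median size of this deviation was 0.016 on ACO and 0.008 on NCO, so this spot too was uneven between arrays. The 12 measured spots within 2 rows and 2 columns had a median ASO minus ACO of 0.03, with a range from -2.35, for Dap3, to 0.25. With pixel means the signals were 1160 on ASO, 482 on ACO and 575 on NCO. The differences were then 1.19 in ASO minus ACO, 0.95 in ASO minus NCO and -0.23 in ACO minus NCO. ASO remained the highest array, whereas the small ACO minus NCO difference changed its sign.

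**Figure D3:**
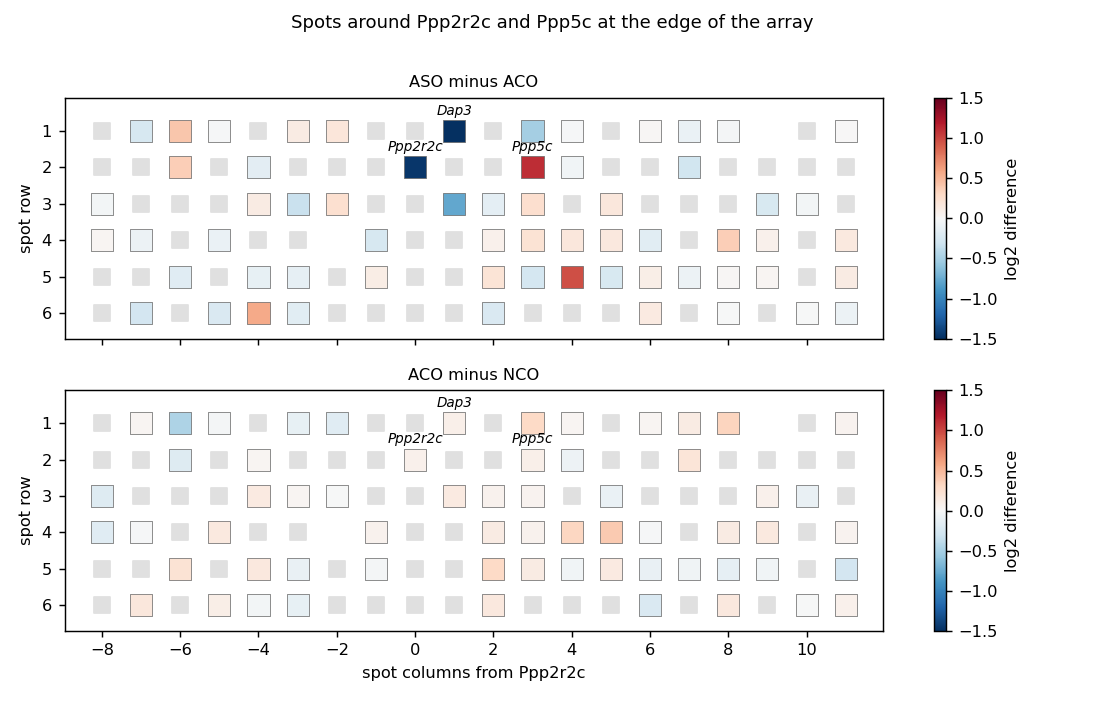
Log2 difference of the spots in 6 rows around Ppp2r2c and Ppp5c, in ASO minus ACO (top) and ACO minus NCO (bottom), by row and by columns from Ppp2r2c. Coloured squares are measured spots, with the colour scale ending at 1.5 in both directions, and small grey squares are spots that were not measured. Ppp2r2c at -1.46 and Dap3 at -2.35 are dark blue beside Ppp5c at 1.10 in ASO minus ACO, and all 3 are pale in ACO minus NCO.

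By their brightest probes the remaining measured PP2A genes held close values on the 3 arrays, apart from Ppp2r3d. The catalytic subunit Ppp2ca had signals of 5096 on ASO, 5676 on ACO and 5391 on NCO, and its twin Ppp2cb had 7410 on ASO, 8396 on ACO and 8481 on NCO. By these probes both were lowest on ASO, by -0.15 and -0.18 in ASO minus ACO, within 1.2-fold. A second probe of Ppp2ca gave 0.01 in ASO minus ACO and 0.03 in ASO minus NCO, so it was not lowest on ASO. The scaffold Ppp2r1a had 2941 on ASO, 2931 on ACO and 2893 on NCO. Ppp2r4, now named Ptpa, which activates PP2A, had 10141 on ASO, 9833 on ACO and 9765 on NCO. The brightest probes of all 5 B prime subunits, Ppp2r5a to Ppp2r5e, stayed under 1.2-fold in every comparison. The dimmest of 3 measured probes of Ppp2r5c passed it, at 0.39 in ASO minus ACO and 0.42 in ASO minus NCO. Its signals were 89.2 on ASO, 56.4 on ACO and 54.4 on NCO. The widest of the brightest probes in ASO minus ACO was that of Ppp2r5b at 0.25, with signals of 7202 on ASO, 6065 on ACO and 6888 on NCO. Ppp2r5e was dim, with 131 on ASO, 130 on ACO and 158 on NCO.

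Ppp2r3d, a B double prime subunit, had a low signal of 167 on ASO, 86.8 on ACO and 118 on NCO. The 3 arrays were all apart, with differences of 0.67 in ASO minus ACO, 0.37 in ASO minus NCO and -0.30 in ACO minus NCO. It was the 1 phosphatase gene in the authors' deposited table, which listed 138.3 on ASO, 63.5 on ACO and 93.8 on NCO, in the same order. Its score above background on NCO was the lowest of the measured set, and its ASO minus ACO difference ran between 0.36 with a constant of 200 and 0.87 with a constant of 10. The other measured B double prime gene, Ppp2r3c, had 773 on ASO, 846 on ACO and 776 on NCO.

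The PP1 catalytic subunits, which cleave phosphate for all the targeting subunits, differed little between arrays. Ppp1ca had signals of 14515 on ASO, 14474 on ACO and 13760 on NCO. Ppp1cb had 4899 on ASO, 5203 on ACO and 5212 on NCO. Ppp1cc had 11009 on ASO, 10983 on ACO and 11455 on NCO. By these probes none was more than 0.09 from 0 in any comparison. Dimmer probes of Ppp1cc went in different directions, with -0.26 and 0.08 in ASO minus ACO and -0.19 and 0.21 in ASO minus NCO.

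**Figure D4:**
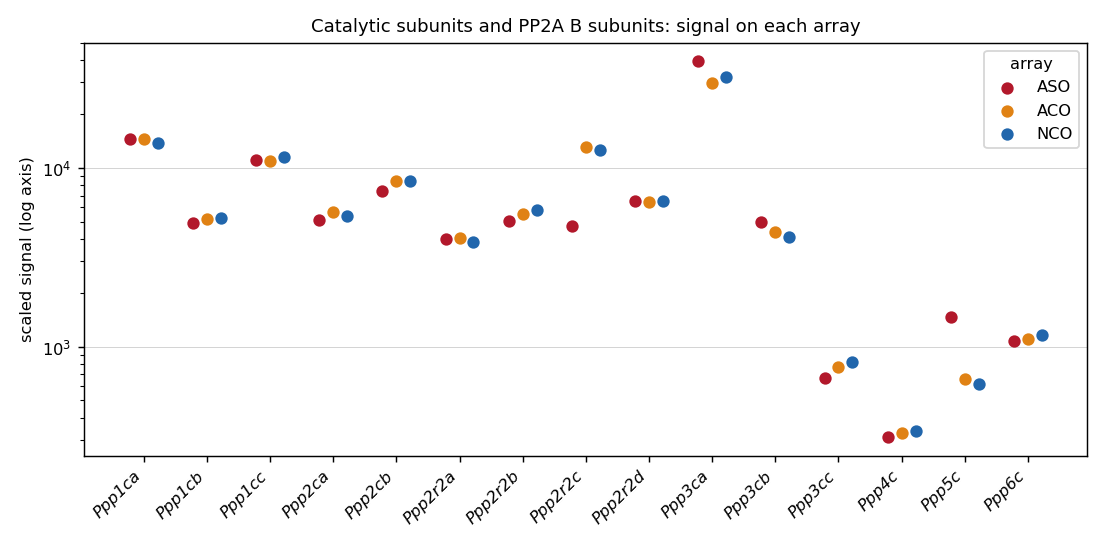
Scaled signal (log axis) of the catalytic subunits and the PP2A B subunits on the ASO, ACO and NCO arrays, from left to right for each gene, with 1 point for each array and no error bar because there was 1 array per group. Only the 3 points of a gene can be compared. Ppp2r2c is low on ASO (4740), Ppp5c is high on ASO (1471), and Ppp3ca reaches 39329 on ASO.

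Among the PP1 inhibitors 8 of 10 genes were measured. Between ASO and ACO 2 were at least 1.2-fold higher and 1 was lower, beside 10.1% and 9.44% of all measured genes. Ppp1r14b, which inhibits PP1 once phosphorylated, had signals of 2002 on ASO, 1600 on ACO and 1594 on NCO, with differences of 0.31 in ASO minus ACO and 0.32 in ASO minus NCO. Its second probe gave 0.51 and 0.22 in those comparisons, the same direction, and -0.29 in ACO minus NCO where the first gave 0.00. Ppp1r14a, an inhibitor of myosin phosphatase best known from smooth muscle, had 1336 on ASO, 1083 on ACO and 1339 on NCO. It was low on ACO alone, by 0.29 in ASO minus ACO and -0.29 in ACO minus NCO. Ppp1r1a, inhibitor 1, which is switched on by protein kinase A, had 575 on ASO, 714 on ACO and 652 on NCO. It differed by -0.29 in ASO minus ACO. Ppp1r1b, the dopamine- and cAMP-regulated inhibitor prominent in striatum, had 2086 on ASO, 1989 on ACO and 1765 on NCO, under 1.2-fold in every comparison. Of 8 striatal markers, Drd2 and Adora2a were not well above background on all arrays, and the 6 measured had a median ASO minus ACO of -0.15.

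Of the 19 PP1 targeting subunits 15 were measured. Between ASO and ACO 1 was higher and 2 were lower by at least 1.2-fold, beside 10.1% and 9.44% of all measured genes. The myosin phosphatase subunits went in different directions. Ppp1r12a, which brings PP1 to myosin, had signals of 4478 on ASO, 3298 on ACO and 3524 on NCO, with differences of 0.44 in ASO minus ACO and 0.34 in ASO minus NCO. Its relative Ppp1r12c had 1581 on ASO, 2587 on ACO and 2858 on NCO, with differences of -0.69 and -0.83. Ppp1r12b was dim on all arrays, with 104 on ASO, 103 on ACO and 96.9 on NCO. The 14 measured spots around Ppp1r12c were themselves low on ASO, with a median of -0.25 in ASO minus ACO and a lowest value of -0.97, and the part of this area in the result was not tested. After subtraction of the 5 by 5 window Ppp1r12c stood at -0.42 in ASO minus ACO. Around Ppp1r12a the median was 0.11.

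Neurabin, encoded by Ppp1r9a, and spinophilin, encoded by Ppp1r9b, hold PP1 at actin in dendritic spines. Ppp1r9a had signals of 3991 on ASO, 4963 on ACO and 5280 on NCO, lowest on ASO, with differences of -0.31 in ASO minus ACO and -0.40 in ASO minus NCO. The 12 measured spots around it had a median of 0.22 in ASO minus ACO, the opposite direction. Ppp1r9b had 29515 on ASO, 31417 on ACO and 29897 on NCO, within 1.2-fold; with quantile normalization its ASO minus ACO difference was -0.27. Ppp1r10, a nuclear targeting subunit, had 121 on ASO, 115 on ACO and 154 on NCO, so that NCO alone was high. Its difference of -0.31 in ACO minus NCO was the lowest of the 64 in that comparison, and it shrank to -0.17 with a constant of 200. Among the glycogen-targeting subunits 4 were measured on all arrays and stayed within 1.2-fold. The most apart of them in ACO minus NCO was Ppp1r3f, with 123 on ASO, 135 on ACO and 108 on NCO and a difference of 0.23.

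The calcineurin catalytic genes differed in direction. Ppp3ca, the alpha form, had signals of 39329 on ASO, 29887 on ACO and 32135 on NCO, highest on ASO by 0.40 in ASO minus ACO and 0.29 in ASO minus NCO. Ppp3cb, the beta form, had 4998 on ASO, 4387 on ACO and 4111 on NCO, with 0.19 and 0.28. Ppp3cc, the gamma form best known from testis, had 666 on ASO, 774 on ACO and 823 on NCO, with -0.20 and -0.29. Thus 2 catalytic genes were higher and 1 was lower by at least 1.2-fold between ASO and NCO, beside 10.3% and 8.39% of all genes. Only Ppp3ca passed that size between ASO and ACO. With quantile normalization Ppp3ca gave 0.21 in ASO minus ACO and 0.17 in ASO minus NCO, under 1.2-fold. Subtraction of the 5 by 5 window gave 0.14 for Ppp3ca and 0.07 for Ppp3cb in ASO minus NCO, where the 10 measured spots around Ppp3cb had a median of 0.20. With a constant of 200 Ppp3cc gave -0.24 in ASO minus NCO. None of the 3 calls between ASO and NCO therefore held under every setting. The calcium-binding subunit Ppp3r1 had 16174 on ASO, 14782 on ACO and 17218 on NCO, under 1.2-fold throughout.

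The PP4 and PP6 catalytic genes were alike on the arrays. Ppp4c had signals of 312 on ASO, 330 on ACO and 338 on NCO, and Ppp6c had 1074 on ASO, 1099 on ACO and 1169 on NCO. Ppp4r4, a PP4 regulatory subunit, had 1013 on ASO, 1257 on ACO and 1075 on NCO. It was high on ACO alone, with -0.30 in ASO minus ACO and 0.22 in ACO minus NCO. Ppp6r1, a PP6 regulatory subunit, had 262 on ASO, 163 on ACO and 171 on NCO, high on ASO alone. Its differences were 0.55 in ASO minus ACO and 0.49 in ASO minus NCO, and its relatives Ppp6r2 and Ppp6r3 gave 0.17 and 0.18 in ASO minus ACO. A second probe of Ppp6r3 gave -0.21 in ASO minus ACO and -0.13 in ASO minus NCO, the opposite direction.

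Of the 12 PPM genes 10 were measured. Their median was -0.19 in ASO minus ACO, -0.11 in ASO minus NCO and 0.04 in ACO minus NCO. Over all measured genes it was -0.02, -0.02 and 0.01. Between ASO and ACO 3 of the 10 were lower and 0 higher by at least 1.2-fold, beside 9.44% and 10.1% of all measured genes. Ppm1d, a stress phosphatase induced by p53, had signals of 319 on ASO, 420 on ACO and 357 on NCO, a difference of -0.35 in ASO minus ACO. Ppm1h, which acts on Rab proteins, had 2712 on ASO, 3459 on ACO and 3261 on NCO, also -0.35. Ppm1l, a membrane-bound form, had 6306 on ASO, 7890 on ACO and 7978 on NCO, with -0.32 in ASO minus ACO and -0.34 in ASO minus NCO. Second probes of Ppm1h and Ppm1l gave 0.05 and 0.07 in ASO minus ACO, so for these genes the lower value on ASO was seen by the brighter probe alone. Ppm1b, which acts on stress kinases, had 5433 on ASO, 6362 on ACO and 7076 on NCO. It passed 1.2-fold between ASO and NCO at -0.38, and its second probe gave -0.22. Ppm1k, the mitochondrial phosphatase of branched-chain amino acid breakdown, and Ppm1g, a nuclear form, were higher on ASO by 0.14 and 0.16 in ASO minus ACO, within 1.2-fold.

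Different probes of a gene offered a check that the choice of the brightest probe did not use. It was open to 17 phosphatase genes with at least 2 measured probes. The brightest and the second probe had the same sign for 6 of 17 in ASO minus ACO, 8 of 17 in ASO minus NCO and 12 of 17 in ACO minus NCO, or 35.3%, 47.1% and 70.6%. Over 2936 genes of the array with 2 measured probes the same share was 57.4%, 55.5% and 55.9%. The median gap between them was 0.16, 0.15 and 0.06 in these comparisons, against 0.16, 0.16 and 0.10 over those 2936 genes. Of the 15 genes at least 1.2-fold apart between ASO and ACO, 3 had another measured probe, and it had the same sign for 1 of them, Ppp1r14b. The other 12, Ppp2r2c and Ppp5c included, had none.

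**Figure D5:**
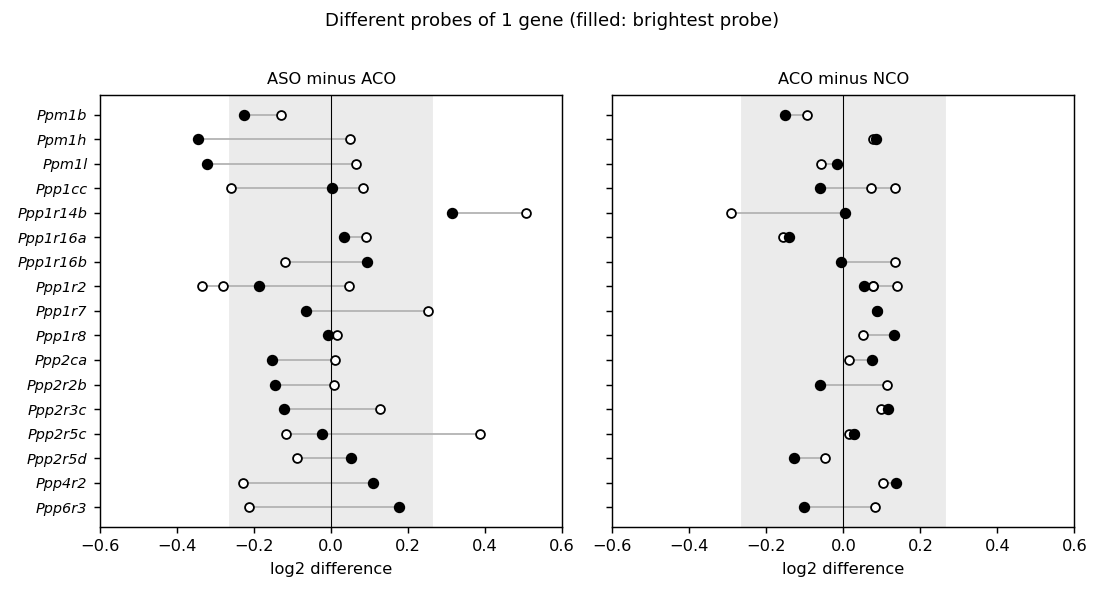
Log2 difference of every measured probe of the 17 phosphatase genes with several measured probes, in ASO minus ACO and ACO minus NCO. Filled points are the brightest probe of a gene, open points its other probes, lines join the probes of 1 gene, and the grey band spans differences under 1.2-fold. In ASO minus ACO many lines cross 0, and the median gap of brightest and second probe is 0.16.

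Genes that work with these enzymes but fall outside the set were described from 2 lists. The first held 39 inhibitors, scaffolds, chaperones, methylation enzymes and related phosphatases, of which 34 were measured. Between ASO and ACO 1 was at least 1.2-fold higher and 4 were lower, beside 10.1% and 9.44% of all measured genes. The median of the list was -0.05. The lowest was Pdp1, a mitochondrial phosphatase of pyruvate dehydrogenase, with 827 on ASO, 2361 on ACO and 2268 on NCO. Its spot, too, had an unusual pixel mean over median on ASO, of 1.07, against 0.79 on ACO and 0.79 on NCO. Between ASO and NCO 1 gene of the list was higher and 3 were lower, beside 10.3% and 8.39% of all measured genes. Between ACO and NCO the counts were 0 and 0, beside 2.78% and 2.7%.

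The second list held tau and 22 kinases or kinase activators that act on it. Of these 23 genes 22 were measured. Between ASO and ACO 0 were at least 1.2-fold higher and 1 was lower, Ttbk2, a tau tubulin kinase, at -0.44. Between ASO and NCO 1 was higher and 1 was lower, again Ttbk2, at -0.40. Between ACO and NCO 0 were higher and 0 lower. Of all measured genes 10.1% were higher and 9.44% lower in the first of these comparisons. The shares were 10.3% and 8.39% between ASO and NCO, and 2.78% and 2.7% between ACO and NCO. Tau itself, Mapt, had signals of 18910 on ASO, 19349 on ACO and 18016 on NCO, within 1.2-fold in every comparison. RNA levels say nothing of tau phosphorylation, which was not measured.

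All 8 markers of hippocampal excitatory neurons were measured, with a median of -0.11 in ASO minus ACO and a range from -0.49 to 0.35. Their summed signal was 18819 on ASO, 17799 on ACO and 18413 on NCO. Some glial markers differed between the arrays on which the phosphatase genes were compared. Of 8 microglial markers 6 were at least 1.2-fold higher and 1, P2ry12, was lower between ASO and ACO, with a median of 0.43. Of all measured genes 10.1% were higher and 9.44% lower. Between ASO and NCO 5 of these markers were higher and 1, Itgam, was lower, beside 10.3% and 8.39% of all measured genes. The median of the 8 markers was then 0.45. Beside 2.78% and 2.7% of all measured genes, 2 were higher and 3 lower between ACO and NCO, with a median of -0.17 over the 8 markers. Their signals added over different probes came to 17867 on ASO, 12323 on ACO and 17825 on NCO, of which Itgam gave 4790 on ASO, 3760 on ACO and 8521 on NCO. Of 5 astrocyte markers 2 were higher and 0 lower between ASO and ACO, where 10.1% and 9.44% of all measured genes were. Their sum was 17035 on ASO, 13320 on ACO and 13591 on NCO. Of 6 oligodendrocyte markers 1 was higher and 0 lower between ASO and ACO, beside the same shares of all genes. Of 6 choroid plexus markers 5 were higher and 1, Ttr, was lower between ACO and NCO, beside 2.78% and 2.7% of all measured genes. Their summed signal was 19884 on ASO, 19629 on ACO and 23646 on NCO. Of this Ttr gave 15657 on ASO, 14579 on ACO and 20070 on NCO. The part of such cells in the phosphatase differences was not tested, and in pooled tissue fewer cells of a type and less RNA per cell cannot be told apart.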

How the data were processed

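Hippocampal RNA of the groups ASO, ACO and NCO was measured on 1 Cy3 array each, from 10 pooled mice and 200 ng of labelled RNA, all on 1 slide, and groups came from the labels. Per the file headers, the authors used a GenePix 4000B scanner at 532 nm and took each spot's intensity and local background from GenePix Pro 6.1.0.4, not normalized. That program also gave the deposited signal to noise score and percent of saturated pixels of a spot. The submitters' processing notes name Agilent Feature Extraction, whose signal the planned design assumed; the files hold GenePix columns, so that signal was replaced.

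The background correction was normexp (saddle fit, offset 0) of limma 3.58.1 under R 4.3.3. Control spots were dropped, and arrays were scaled to a common 75th percentile by factors of 0.991 on ASO, 0.949 on ACO and 1.06 on NCO. A constant of 50 was added before log2, which draws dim probes towards 0. Printed signals leave the constant out. A probe was measured if its signal to noise score reached 2.6 on all 3 arrays, unless 50% of its pixels were saturated on all or a spot was marked bad. Each gene was represented by its brightest measured probe. Steps after limma used Python 3.11.15, numpy 2.4.6, pandas 2.3.3 and matplotlib 3.10.9, and the scaling and counting steps were tested on simulated data.

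The array's gene names were used; 75 of 76 phosphatase genes had a probe accession in a RefSeq table of assembly GRCm38.p6, and 74 kept their symbol. The members, lists and tests were chosen with earlier results of these data known. Named genes were Ppp2r2c and Ppp5c, every catalytic and Ppp2r2 gene, the 8 largest differences per comparison, the 5 brightest and 5 dimmest, and genes 1.2-fold apart in at least 2 comparisons; other genes were added to complete a role and were chosen with their values seen. In each of the 2 lists outside the set, 1 counted gene is not reported here by name. The value table that the authors deposited lists intensities of 475 probes, which are straight lines of the foreground median with slopes of 0.893 on ASO, 0.917 on ACO and 1 on NCO and column medians of 113.3 on ASO, 97.4 on ACO and 116.8 on NCO; the reason for the slopes is unknown. The number of arrays limits the precision.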

Additional observations from a re-analysis of the deposited data

How the results depend on the processing

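Each count and median was recomputed under 14 alternative settings, and 153 of 168 recomputed counts and medians stayed within the limits set for no change. Scaling to the median gave 5 higher and 17 lower between ASO and ACO with a median of -0.11 and 1 gene past 2-fold, and 3 higher and 13 lower between ASO and NCO; of all genes 5.21% and 22.5%, and 6.5% and 18.4%, were higher and lower then. Pixel means in place of medians gave 4 lower, beside 7.58% of all genes, and 1 past 2-fold between ASO and ACO, and 0 past 2-fold between ASO and NCO. A constant of 200 gave 1 past 2-fold between ASO and ACO and 1 lower, beside 1.26% of all genes, between ACO and NCO, and a signal to noise limit of 5 also gave 1 lower there, beside 2.52%. A constant of 10 and plain background subtraction each gave 1 higher between ACO and NCO, beside 4.10% and 3.42% of all genes. Leaving out spots of unusual shape, which removes Ppp2r2c, left 1 past 2-fold between ASO and ACO and 1 between ASO and NCO; this setting and the 5 by 5 window were chosen after seeing the data. The cause of the other changes was not tested.

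Ppp2r2c ran between -1.58 and -0.87 in ASO minus ACO, and Ppp5c between 0.96 and 1.19. Of the recomputed values of single genes 129 moved by more than the spot error and 1209 did not, with 0 calls of opposite sign. The authors' deposited table held 1 phosphatase probe and gave no counts. No paired analysis was possible because there was 1 array per group, and for the same reason no array could be left out. Of 13 genes recomputed among the 15 at least 1.2-fold apart between ASO and ACO, 6 kept that size in every setting that measured them: Ppp1r12a, Ppp1r12c, Ppp2r2c, Ppp2r3d, Ppp5c and Ppp6r1. Between ASO and NCO 5 of 13 did, and between ACO and NCO 0 of 3. Dim genes such as Ppp2r3d and Ppp1r10 depend most on the constant.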
